A study of Mus musculus with 49 samples.

Results

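The 35 genes described here are type I interferon-stimulated genes, fixed as a list of symbols and matched by Entrez gene ID to the 24475 genes of the skin and colon count tables. All 35 were found, and all 35 passed the filter on low counts in both tissues. Messenger RNA was sequenced in 49 libraries, 23 of skin and 26 of colon, from mice that the labels call a DITRA model, with the strain given as 75% C57BL/6NTac 25% 129S6/SvEvTac. DITRA is deficiency of the interleukin-36 receptor antagonist, which leaves interleukin-36 signalling without its natural inhibitor. The labels give no allele, transgene, promoter, age or sex, and no library comes from mice without the model. All 8 groups therefore share it, the water controls included. In skin the groups were water with PBS (3 libraries), imiquimod (IMQ) with PBS (6), IMQ with anti-IL-36R (7), which targets the receptor of interleukin-36 in its human form, and IMQ with anti-IL-12p40 (7), directed at the subunit that mouse IL-12 and IL-23 share. The colon groups were water with PBS (5), dextran sulfate sodium (DSS) with PBS (6), DSS with anti-IL-36R (8) and DSS with anti-IL-12p40 (7). IMQ is an agonist of Toll-like receptor 7 that inflames the skin, and DSS, given by mouth, damages colon epithelium and so causes colitis. Whether the libraries of a group come from separate animals is not stated, so p-values measure only the spread between these samples.

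Type I interferons bind the receptor chains Ifnar1 and Ifnar2, whose kinases activate the ISGF3 complex, of which STAT2 and IRF9 are parts. ISGF3 binds the interferon-stimulated response element (ISRE) in the promoters of many genes, among them genes for proteins that sense viral RNA, degrade it, block its translation or carry the signal further. Type III interferons use other receptors but the same complex, and interferon-gamma, which has its own receptor, induces part of the same genes, so the list does not tell the ligands apart.

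The libraries held 14723200 to 19678100 expected counts in skin and 15081700 to 18663400 in colon. Summed markers of skin epidermis were at least 30447 CPM (TMM-scaled counts over a common library total) in every skin library, and those of colon epithelium at least 2924 CPM in every colon library against at most 11.3 CPM in skin. The lowest of the colon libraries, replicate 6 of the DSS PBS group, held Krt5, a keratin of stratified epithelium, at 1495 CPM and Krt14 at 1067 CPM, against at most 11.1 and 16.3 CPM in any other colon library. Some libraries stood apart on the listed genes. DSS PBS replicate 2 was the lowest of its 6 for 33 of the 35 genes, DSS anti-IL-36R replicate 2 was the highest of its 8 for 33, and skin water replicates 2 and 3 were the lowest for 32 and the highest for 31 of the 35. Most comparisons below give the counts without them where they enter.

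Promoters were read to show the sequence through which ISGF3 acts. A window of 250 bases before to 50 after the start site (RefSeq, GRCm38.p6) was at hand for 26 of the 35 genes; Mx1, Mx2, Oas2, Usp18, Dhx58, Rtp4, Zbp1, Parp9 and Parp14 are named only. The letters GAAANNGAAA, or TTTCNNTTTC on the other strand, with overlapping matches counted, were found in the windows of 13 of these 26 genes (50%) and of 1079 of all 27025 genes with a window (3.99%). The gamma-activated site TTCNNNGAA, which reads the same on both strands and can overlap the other motif, was found for 5 of 26 genes (19.2%) against 9.55% of all. Shown are the 160 bases before the start site of the genes that are described by library and hold the first motif, in the direction of transcription, with that motif in capitals.
Isg15, chr4:156200819-156200978, minus strand: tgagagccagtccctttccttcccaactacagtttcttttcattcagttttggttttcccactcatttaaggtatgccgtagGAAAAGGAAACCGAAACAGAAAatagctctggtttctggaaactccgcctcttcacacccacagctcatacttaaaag
Ifit3, chr19:34583369-34583528, plus strand: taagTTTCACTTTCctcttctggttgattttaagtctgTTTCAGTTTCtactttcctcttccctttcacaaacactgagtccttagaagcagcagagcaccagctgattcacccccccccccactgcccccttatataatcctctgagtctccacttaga
Rsad2, chr12:26456453-26456612, minus strand: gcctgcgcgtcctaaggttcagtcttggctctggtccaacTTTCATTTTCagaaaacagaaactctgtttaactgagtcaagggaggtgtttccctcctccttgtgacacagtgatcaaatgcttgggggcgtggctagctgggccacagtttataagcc
Bst2, chr8:71537473-71537632, minus strand: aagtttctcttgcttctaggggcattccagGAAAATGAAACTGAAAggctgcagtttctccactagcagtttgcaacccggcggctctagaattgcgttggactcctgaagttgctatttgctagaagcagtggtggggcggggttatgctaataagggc
The capitals of Isg15 join 3 overlapping matches that begin 78, 72 and 66 bases before the start site, and those of Bst2 join 2 that begin 130 and 124 bases before it. Ifit3 holds 2 separate matches, and Rsad2 holds 1. The start site used for Ifit3 lies inside the span of the gene, which begins at base 34583119 of chromosome 19. A match is a description of the letters and does not show that a factor binds there. Of the 13 genes with the motif 7 rose in DSS colon, and of the 13 in which it was not found 9 did, beside 17.6% of all tested genes. Their median log2 fold changes went the other way, at 1.28 and 0.99. The 2 sets were not tested against each other, and the comparison is set out below.

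**Figure D1:**
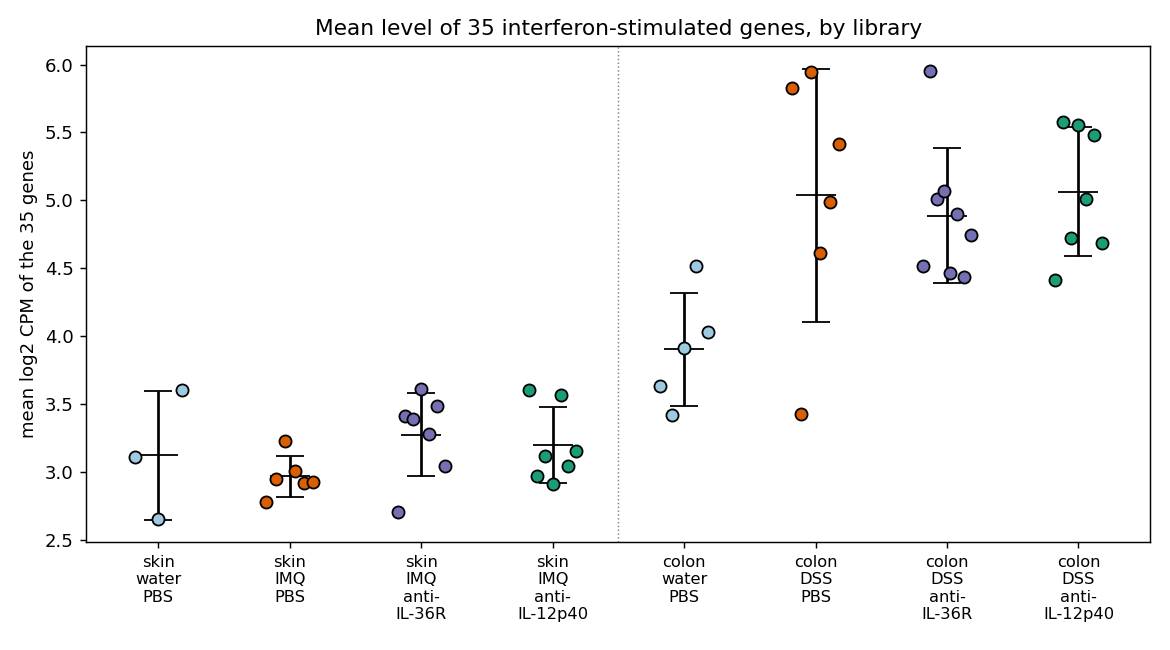
Mean log2 CPM (prior count 2) of the 35 genes on the vertical axis, for each library (points) in the 8 groups on the horizontal axis; bars show the group mean and SD. The 5 colon water libraries lie between 3.42 and 4.51, the DSS PBS libraries spread from 3.43 to 5.94, and the 23 skin libraries lie between 2.65 and 3.61.

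DSS with PBS was compared with water with PBS to see how colitis changed these genes in colon. Of the 35 genes 24 rose and 0 fell (edgeR quasi-likelihood test, Benjamini-Hochberg adjusted p under 0.05 over all 15731 tested genes). The share of all tested genes that rose was 17.6%. The log2 fold change was above 0 for 34 of the 35 and its median was 1.10, beside -0.03 over all genes. By role, 3 of the 3 genes of Isg15 conjugation and removal rose, 2 of 3 IFIT genes, 1 of 2 Mx genes, 3 of 5 of the OAS family, 4 of 7 other antiviral effectors, 2 of 3 transcription factors, 3 of 5 sensors, 3 of 3 of the PARP and Dtx3l group and 3 of the 4 remaining genes. In these bulk tissues a larger number of cells of 1 type and more RNA per cell cannot be told apart.

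Oas2, one of the 2'-5'-oligoadenylate synthases that switch on the RNA-degrading enzyme RNase L, showed the largest change. In colon it stood at 1.54, 1.69, 3.15, 10.7 and 2.93 CPM in the 5 water libraries and at 2.27 to 47.2 CPM (median 38.8) in the 6 DSS PBS libraries. The log2 fold change was 2.97 ± 0.75, adjusted p = 0.0038 (edgeR; ± is the SE here and below). The groups overlap because the lowest DSS library, replicate 2, lies within the water range. Zbp1, a sensor of Z-form nucleic acid that can trigger necroptosis, stood at 6.11, 5.46, 9.34, 13.4 and 11.8 CPM in water and 23.7 to 123 CPM (median 75.5) under DSS. Its change was 2.94 ± 0.45, adjusted p = 2.78e-05, and it was the 1 gene of the 35 whose DSS PBS libraries all lay above all water libraries; 8.02% of all tested genes did so. For Ifi44, an interferon-induced protein that restrains several viruses, the values were 1.54, 1.13, 2.03, 2.76 and 3.81 CPM in water and 0.895 to 36.4 CPM (median 10.6) under DSS. It rose by 2.71 ± 0.72, adjusted p = 0.00569, with the lowest DSS library under all 5 controls.

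Isg15 encodes a ubiquitin-like protein that is joined to other proteins during the interferon response. Its level was 1.91, 1.91, 4.43, 11.4 and 9.04 CPM in colon water libraries and 3.04 to 48.3 CPM (median 22.5) under DSS with PBS. The change was 2.18 ± 0.69, adjusted p = 0.0174, and 2 of the 6 DSS libraries lay within the water range. Usp18 removes Isg15 from its targets and also blocks signalling at Ifnar2. It stood at 1.05, 0.844, 1.23, 4.88 and 2.50 CPM in water and at 2.15 to 16.7 CPM (median 8.48) under DSS (2.16 ± 0.58, adjusted p = 0.00613). Herc6, the mouse ligase that joins Isg15 to proteins, rose as well (1.39 ± 0.34, adjusted p = 0.00326).

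Of the IFIT proteins, which bind viral RNA and block its translation, Ifit3 was at 4.997, 4.22, 4.22, 9.96 and 9.42 CPM in the water libraries and 1.85 to 38.7 CPM (median 16.2) under DSS with PBS. It rose by 1.53 ± 0.50, adjusted p = 0.0219, and Ifit2 rose by 2.06 ± 0.50, adjusted p = 0.003. Ifit1 did not pass (1.28 ± 0.59, adjusted p = 0.0977); 1 water library held it at 37.2 CPM and the other 4 at no more than 11.9 CPM. Mx1 and Mx2 are dynamin-like GTPases that trap viral components. The Mx1 values were 3.83, 2.03, 4.06, 16.4 and 4.43 CPM in water and 1.91 to 22.1 CPM (median 10.9) under DSS, and the difference did not pass (0.90 ± 0.49, adjusted p = 0.168). Water replicate 4 was again far above the other 4 controls. Mx2 rose by 1.48 ± 0.51, adjusted p = 0.0295, at a level of at most 6.36 CPM.

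Within the OAS family Oas3 (2.16 ± 0.76, adjusted p = 0.0314) and Oasl2 (1.89 ± 0.65, adjusted p = 0.0275) rose with Oas2. Oas1a (0.33 ± 0.27, adjusted p = 0.379) and Oasl1 (0.41 ± 0.31, adjusted p = 0.331), a homologue that lacks the synthase activity, did not pass. Oasl1 was already at 15.6, 31.8, 39.2, 37.6 and 12.5 CPM in the colon water libraries, against 1.09, 1.52 and 2.65 CPM in the 3 of skin, a comparison across tables that were normalized separately.

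Among the other antiviral effectors, Bst2 (tetherin), which holds budding virus at the cell surface, stood at 12.8, 10.3, 11.8, 14.3 and 20.5 CPM in water and 14.1 to 60.9 CPM (median 34.2) under DSS with PBS. It rose by 1.39 ± 0.34, adjusted p = 0.00321, and 5 of the 6 DSS libraries lay above all controls. Trim30a, a tripartite-motif protein (1.67 ± 0.34, adjusted p = 0.000725), and Rtp4, an interferon-induced receptor transporter (1.64 ± 0.46, adjusted p = 0.00869), also rose. Rsad2 (viperin), a radical-SAM enzyme that makes a chain-terminating nucleotide, did not: its values were 7.34, 5.12, 9.24, 26.8 and 9.17 CPM in water and 3.46 to 34.9 CPM (median 15.7) under DSS (0.69 ± 0.44, adjusted p = 0.243). Cmpk2, its neighbour in the genome and a nucleotide kinase (0.50 ± 0.40, adjusted p = 0.36), and Eif2ak2 (PKR), the kinase that stops translation on double-stranded RNA (0.25 ± 0.18, adjusted p = 0.287), did not pass either.

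Of the transcription factors, Stat2 (1.28 ± 0.26, adjusted p = 0.000527) and Irf9 (0.99 ± 0.22, adjusted p = 0.00139), both parts of ISGF3, rose. Irf7, the factor that amplifies interferon-alpha genes, stood at 44.7, 52.6, 62.5, 138 and 37.9 CPM in water and 40.1 to 164 CPM (median 72.7) under DSS with PBS and did not pass (0.38 ± 0.36, adjusted p = 0.434). Its groups overlapped over nearly their whole range. Of the RNA sensors, Ddx58 (RIG-I; 1.03 ± 0.25, adjusted p = 0.00336) and Dhx58 (LGP2; 0.94 ± 0.30, adjusted p = 0.0183) rose, whereas Ifih1 (MDA5; -0.10 ± 0.19, adjusted p = 0.732) and Ddx60 (1.10 ± 0.52, adjusted p = 0.11) did not pass. Ifih1 was the 1 gene of the 35 with a value under 0; its levels were 92.8, 85.6, 106, 85.8 and 69.1 CPM in water and 53.3 to 124 CPM (median 72.5) under DSS. Parp14 (1.06 ± 0.28, adjusted p = 0.0051), Parp9 (0.76 ± 0.25, adjusted p = 0.0216) and Dtx3l (0.84 ± 0.24, adjusted p = 0.00921), an ADP-ribosylation and ubiquitin ligase group, rose. So did Sp100, a nuclear body protein (1.43 ± 0.23, adjusted p = 4.77e-05), Lgals3bp, a secreted galectin ligand (1.05 ± 0.20, adjusted p = 0.000399), and Ifi35 (0.43 ± 0.15, adjusted p = 0.0309), while Xaf1, an antagonist of the apoptosis inhibitor XIAP, did not pass (0.88 ± 0.48, adjusted p = 0.172).

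Replicate 2 of the DSS PBS group lay at the water level, with a mean log2 CPM over the 35 genes of 3.43, against 4.61 to 5.94 in the other 5. Without it 26 genes rose in place of 24, and the median log2 fold change was 1.32. Without replicate 6, the library with squamous keratins, 21 rose, and over all libraries left out in turn the count ran from 18 (without DSS PBS replicate 3) to 28 (without water replicate 4). The 17.6% of all tested genes that rose belongs to the fit of all libraries. The share in the left-out fits is not given here, so these counts do not show whether the 35 genes alone moved. In replicate 2 the summed neutrophil markers (1183 CPM) lay above those of DSS replicates 1, 3 and 4 (177 to 319 CPM), and the summed T and NK cell markers (100.5 CPM) were the lowest of the 6. Siglech, a marker of plasmacytoid dendritic cells, the main makers of type I interferon, was at 0 in it, and summed interferon-gamma-induced genes stood at 774 CPM against 2657 to 7522 CPM in the other 5. The part of these cells in the result was not tested.

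**Figure D2:**
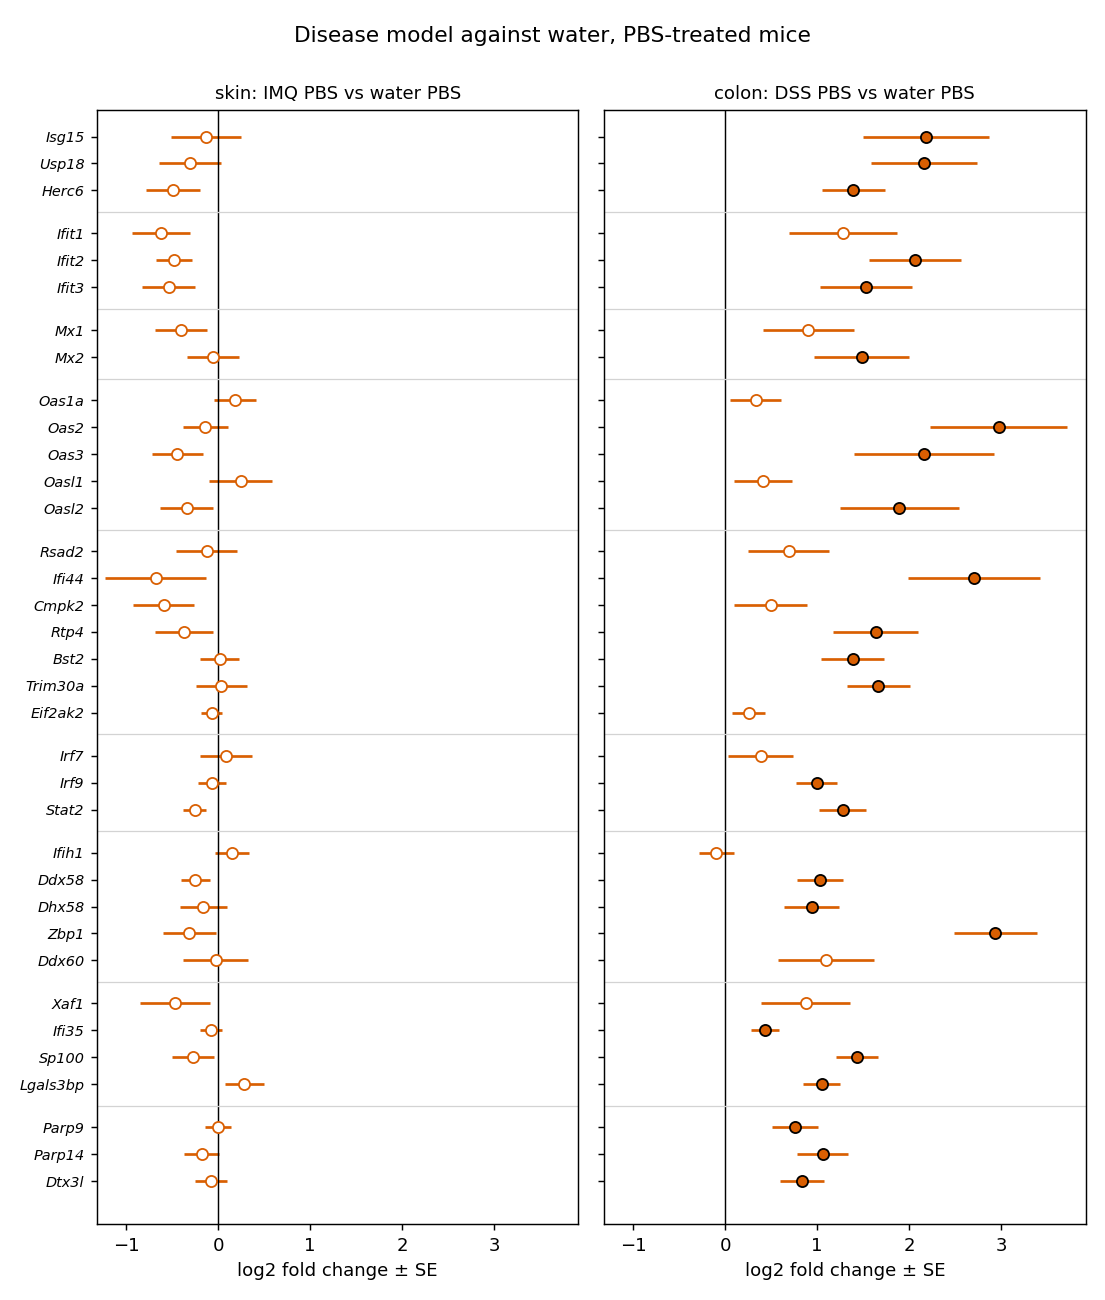
Log2 fold change ± SE on the horizontal axis for the 35 genes, in blocks by role, for IMQ against water in skin (left) and DSS against water in colon (right), PBS groups; filled points passed the test at an adjusted p under 0.05. In colon 24 points are filled and 34 lie right of 0; in skin 0 are filled and 28 lie left of 0.

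Both antibody groups under DSS were also set against the water controls. Under DSS with anti-IL-36R 11 of the 35 genes rose, beside 6.92% of all tested genes, and the median log2 fold change was 0.93; for 10 genes all 8 libraries lay above all 5 controls, as they did for 4.40% of all genes. Under DSS with anti-IL-12p40 19 rose, beside 10.8% of all, with a median of 1.08; for 9 genes the libraries did not overlap with the controls, beside 7.53% of all. No gene of the 35 fell, and all 35 values were above 0 in both. Among the genes that passed, the largest rises were those of Zbp1, Oas2, Ifi44 and Ifit2: 2.64 ± 0.43, 2.34 ± 0.71, 2.22 ± 0.68 and 1.55 ± 0.47 with anti-IL-36R. With anti-IL-12p40 the 4 largest belonged to Zbp1 (2.73 ± 0.44), Ifi44 (2.54 ± 0.70), Oas2 (2.50 ± 0.72) and Isg15 (1.90 ± 0.67). These counts share the 5 water libraries with the DSS PBS comparison. The first is sensitive to single libraries: it was 4 without water replicate 1 or 2, 6 without water replicate 3 or 5 or DSS anti-IL-36R replicate 2, and 18 by DESeq2 and 25 by limma-voom. The second was 11 to 12 without water replicate 2 or 1, and 29 by limma-voom. The shares of 6.92% and 10.8% are those of edgeR with all libraries. Shares of all genes under the other methods and left-out libraries are not given here, so a method that calls more genes in general cannot be told apart.

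IMQ with PBS was compared with water with PBS in skin. None of the 35 genes passed, although 33.0% of the 15345 tested genes changed. The count was 0 by edgeR, by DESeq2 and by limma-voom. Of the 35, 1 gene, Ifit2, had an unadjusted p under 0.05, beside 6857 of all 15345 tested genes. The log2 fold change was under 0 for 28 genes, with a median of -0.16 beside -0.03 over all genes, and it ranged from -0.68 (Ifi44) to 0.28 (Lgals3bp). The 95% interval ended under 1, that is under a 2-fold rise, for all 35. No gene of the 35 had IMQ libraries all above or all below the 3 water libraries, which 13.2% and 13.5% of all tested genes did.

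In skin Isg15 stood at 2.89, 1.46 and 4.84 CPM in the 3 water libraries and at 1.46 to 3.43 CPM (median 3.05) in the 6 IMQ PBS libraries (-0.13 ± 0.38, adjusted p = 0.814 by edgeR). Usp18 was at 3.16, 1.65 and 3.60 CPM in water and 1.83 to 2.85 CPM (median 2.28) under IMQ (-0.31 ± 0.33, adjusted p = 0.4927). For Oas2 the values were 7.73, 6.61 and 17.3 CPM and 8.82 to 11.2 CPM (median 9.29) (-0.14 ± 0.24, adjusted p = 0.682). In each the IMQ libraries lay between the lowest and the highest control or at the lowest, and water replicate 3 was the highest of the 9. Ifit3 was at 8.28, 7.08 and 13.2 CPM in water and 4.07 to 9.09 CPM (median 6.30) under IMQ (-0.54 ± 0.29, adjusted p = 0.153). Mx1 stood at 5.12, 3.31 and 5.24 CPM and 1.82 to 6.04 CPM (median 3.26) (-0.40 ± 0.28, adjusted p = 0.272). Rsad2 was at 3.98, 2.45 and 3.32 CPM and 2.17 to 4.37 CPM (median 2.67) (-0.12 ± 0.33, adjusted p = 0.796). The medians of these 3 were lower under IMQ, within overlapping ranges.

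Bst2 was at 10.4, 7.80 and 13.7 CPM in skin water libraries and 7.66 to 14.5 CPM (median 10.5) under IMQ (0.02 ± 0.21, adjusted p = 0.964), and Irf7 at 9.47, 9.66 and 18.1 CPM and 10.1 to 16.6 CPM (median 12.6) (0.08 ± 0.28, adjusted p = 0.842). The lowest adjusted p of the list was that of Ifit2 (-0.48 ± 0.20, adjusted p = 0.0677), at 12.5, 7.08 and 10.3 CPM in water and 5.70 to 8.89 CPM (median 6.87) under IMQ. By role the medians were all under 0, from -0.07 for the transcription factors to -0.54 for the IFIT genes. Of the sensors, Ifih1 (0.15 ± 0.18), Ddx58 (-0.25 ± 0.16) and Zbp1 (-0.31 ± 0.29) took both signs, none of them past the test.

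The 3 water libraries of skin set the precision of this comparison, and 2 of them lay at its ends. Without water replicate 2, the lowest, 4 genes fell (Ifit2, Stat2, Ddx58 and Herc6) and the median was -0.35; without replicate 3, the highest, 0 passed. Leaving out IMQ PBS replicate 3 gave 1 gene lower. The sample numbers in the titles place IMQ PBS replicates 1 to 3 with the water controls and 4 to 6 with the anti-IL-36R libraries. With either set alone 0 genes passed, with medians of -0.11 and -0.23.

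**Figure D3:**
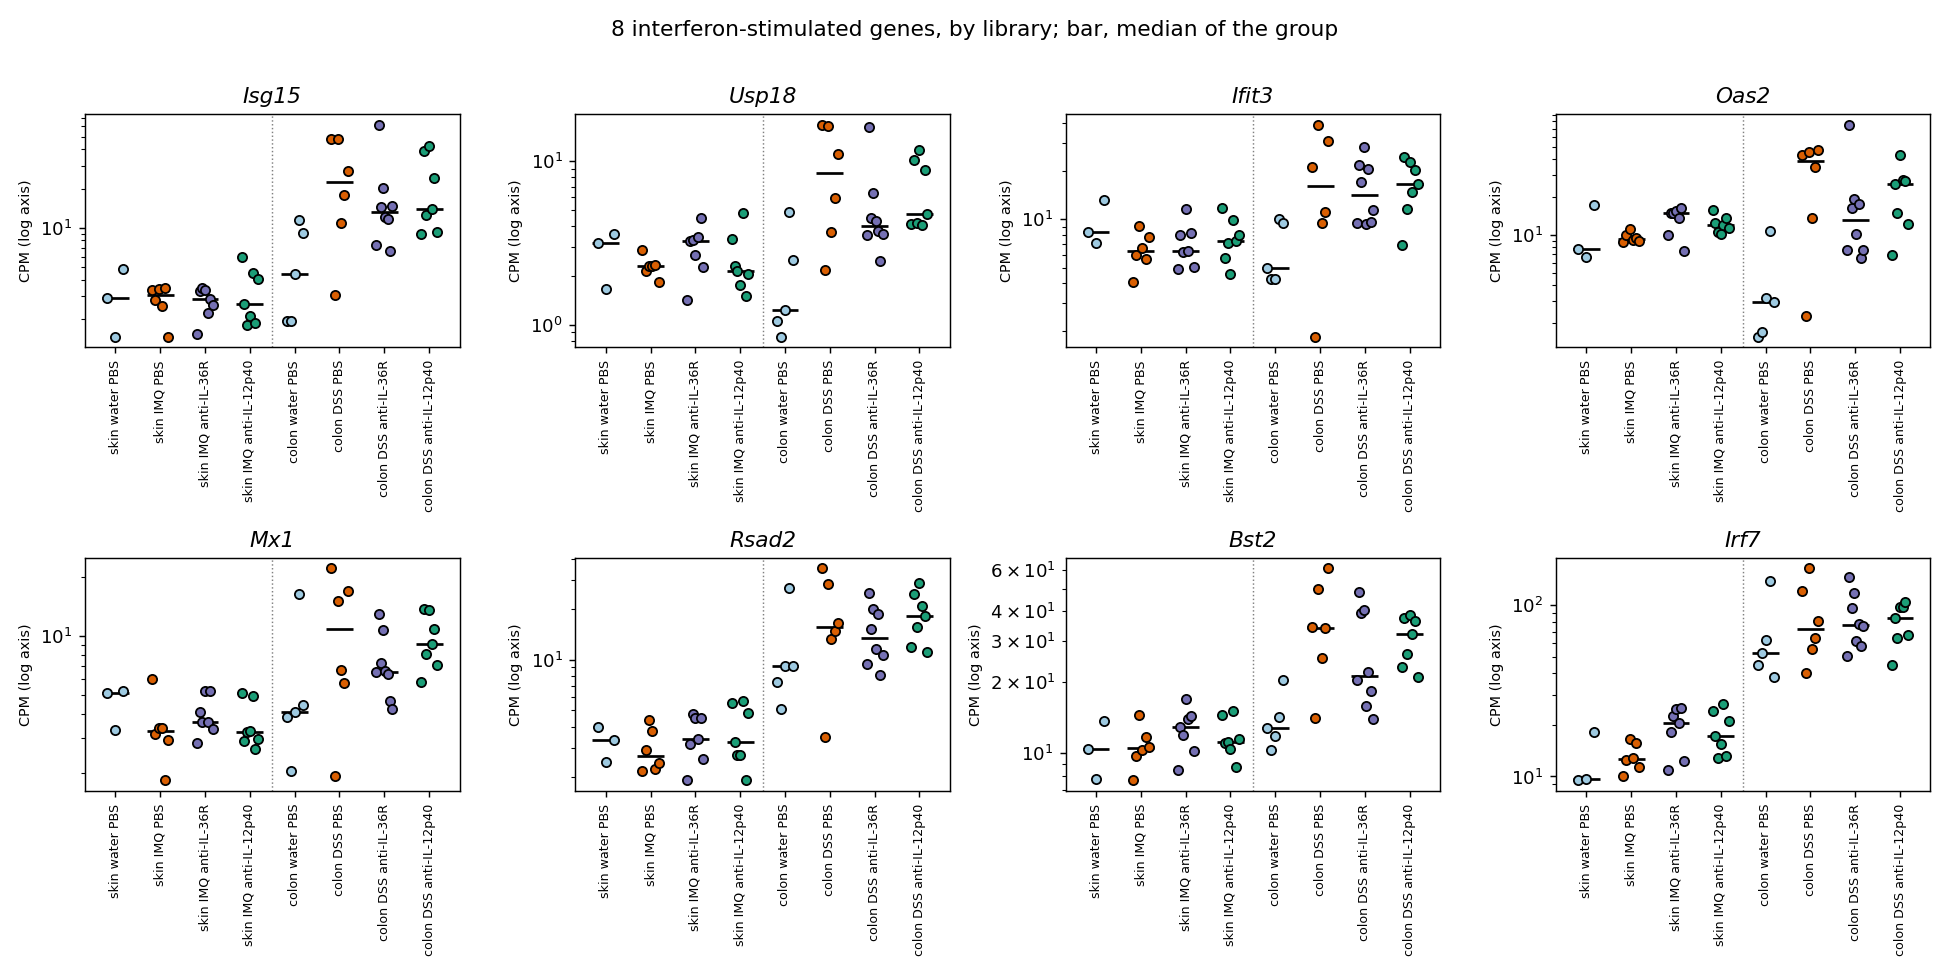
CPM on a log axis for 8 of the genes in each library (points) of the 8 groups on the horizontal axis, with the group median as a bar; skin and colon were normalized separately. Oas2 in colon runs from 1.54 to 10.7 CPM in water and from 2.27 to 47.2 CPM under DSS with PBS, while in skin the IMQ PBS libraries lie between 8.82 and 11.2 CPM.

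A joint fit of skin and colon (16818 genes) tested by interaction whether the change in disease differed between the models. The change under IMQ was lower than that under DSS for 19 of the 35 genes and higher for 0 (edgeR, Benjamini-Hochberg). Of all tested genes 13.4% were lower in the same contrast. The median difference (skin minus colon, log2) was -1.31 beside 0.01 over all genes, and 34 of 35 values were under 0. The largest were those of Ifi44 (-3.35 ± 0.93, adjusted p = 0.00721), Zbp1 (-3.21 ± 0.55, adjusted p = 4.45e-05), Oas2 (-3.07 ± 0.81, adjusted p = 0.00505) and Oas3 (-2.57 ± 0.90, adjusted p = 0.0333). Isg15 (-2.27 ± 0.85, adjusted p = 0.0473), Usp18 (-2.43 ± 0.70, adjusted p = 0.0102), Ifit3 (-2.03 ± 0.62, adjusted p = 0.0146) and Bst2 (-1.33 ± 0.43, adjusted p = 0.0205) also passed, and Mx1 (-1.27 ± 0.62, adjusted p = 0.134), Rsad2 (-0.77 ± 0.60, adjusted p = 0.375) and Irf7 (-0.26 ± 0.49, adjusted p = 0.748) did not. The count fell to 9 without skin water replicate 3, was 21 without skin water replicate 2 and was 26 without DSS PBS replicate 2. Tissue, agent, and run of sample numbers differ together here and cannot be told apart.

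In skin under IMQ, anti-IL-36R was compared with PBS to see whether blocking the receptor changed these genes. None passed by edgeR, beside 4.21% of all tested genes. An unadjusted p under 0.05 was reached by 11 of the 35, beside 3284 of all 15345 tested genes. DESeq2 called 1 and limma-voom 7, all higher. The 4.21% is the share by edgeR, and the shares of all genes by these methods are not given here. The log2 fold change was above 0 for 34 of the 35, with a median of 0.29 beside 0.00 over all genes, and ranged from -0.04 (Isg15) to 0.75 (Mx2). Mx2 stood at 0.643 to 1.09 CPM (median 0.827) with PBS and 1.08 to 1.94 CPM (median 1.37) with anti-IL-36R, a gene with a median of 18.4 counts a skin library (0.75 ± 0.22, adjusted p = 0.053; adjusted p = 0.0405 by DESeq2 and 0.0311 by limma-voom). Herc6 (0.64 ± 0.24, adjusted p = 0.123), Ddx58 (0.34 ± 0.13, adjusted p = 0.117) and Eif2ak2 (0.25 ± 0.09, adjusted p = 0.108) had the next lowest adjusted p by edgeR, and limma-voom called these with Oas2, Oas3, Parp14 and Mx2.

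By library, Oas2 was at 7.46 to 16.2 CPM (median 14.8) in skin with anti-IL-36R, against 8.82 to 11.2 CPM (median 9.29) with PBS (0.46 ± 0.19, adjusted p = 0.171). Irf7 was at 10.96 to 25.3 CPM (median 20.6) against 10.1 to 16.6 CPM (median 12.6) (0.55 ± 0.22, adjusted p = 0.156). For Usp18 the levels were 1.42 to 4.48 CPM (median 3.26) against 1.83 to 2.85 CPM (median 2.28) (0.38 ± 0.27, adjusted p = 0.423). In all 3 the median was higher with the antibody, and replicate 1 of that group, the lowest of its 7 for 28 of the 35 genes, lay within the PBS range for Oas2 and Irf7 and under it for Usp18. Bst2 was at 8.46 to 17.05 CPM (median 12.98) against 7.66 to 14.5 CPM (median 10.5) (0.24 ± 0.17, adjusted p = 0.431), and Ifit3 at 4.88 to 11.6 CPM (median 6.37) against 4.07 to 9.09 CPM (median 6.30) (0.13 ± 0.23, adjusted p = 0.782). Mx1 was at 2.84 to 5.25 CPM (median 3.63) with the antibody (0.22 ± 0.23, adjusted p = 0.618), Rsad2 at 1.93 to 4.73 CPM (median 3.37) (0.24 ± 0.26, adjusted p = 0.639) and Isg15 at 1.53 to 3.43 CPM (median 2.87) (-0.04 ± 0.30, adjusted p = 0.955). Their ranges overlapped with those under PBS given above. Without replicate 1 of the antibody group 2 genes rose. Against PBS replicates 1 to 3 or 4 to 6 alone 0 passed, with medians of 0.26 and 0.33.

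Anti-IL-12p40 against PBS in skin shares the 6 PBS libraries with the comparison above. None of the 35 passed by edgeR, beside 8.80% of all genes. An unadjusted p under 0.05 was reached by 5 of the 35, beside 3885 of all 15345 tested genes. DESeq2 and limma-voom each called 1, Ddx58. The median was 0.24 beside 0.01 over all genes, and 31 values were above 0. Ddx58 was at 15.9 to 21.1 CPM (median 18.8) with PBS and 21.1 to 28.1 CPM (median 23.2) with anti-IL-12p40 (0.39 ± 0.13, adjusted p = 0.0534; 0.0283 by DESeq2 and 0.0222 by limma-voom). Oasl1 had the largest value (0.64 ± 0.26, adjusted p = 0.128), at 2.21 to 5.32 CPM (median 2.90) against 1.09 to 3.01 CPM (median 2.02).

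Irf7 was at 12.8 to 26.5 CPM (median 17.2) in skin with anti-IL-12p40 (0.50 ± 0.22, adjusted p = 0.159), Oas2 at 10.2 to 15.8 CPM (median 11.999) (0.36 ± 0.19, adjusted p = 0.252) and Isg15 at 1.79 to 5.91 CPM (median 2.60) (0.21 ± 0.30, adjusted p = 0.707). These 3 had medians of 12.6, 9.29 and 3.05 CPM with PBS. Usp18 was at 1.49 to 4.79 CPM (median 2.15) (0.18 ± 0.27, adjusted p = 0.729), Ifit3 at 4.54 to 11.7 CPM (median 7.29) (0.24 ± 0.23, adjusted p = 0.548) and Mx1 at 2.63 to 5.11 CPM (median 3.22) (0.06 ± 0.23, adjusted p = 0.908). Rsad2 was at 1.91 to 5.68 CPM (median 3.25) (0.35 ± 0.26, adjusted p = 0.428) and Bst2 at 8.72 to 15.1 CPM (median 11.1) (0.13 ± 0.17, adjusted p = 0.679). Replicates 1 and 5 were the highest of the 7 for 15 and 16 of the 35 genes. With PBS replicates 1 to 3 or 4 to 6 alone 0 genes passed, with medians of 0.24 and 0.26.

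Values of other lists in skin with the antibodies, against PBS, stand beside those of the 35 genes. Of all tested genes 4.21% changed with anti-IL-36R and 8.80% with anti-IL-12p40. Of 28 interferon-gamma-induced genes 26 lay above 0 with anti-IL-36R (median 0.44, 0 passed) and 22 with anti-IL-12p40 (median 0.26, 0 rose and 1 fell). Of 13 T and NK cell markers 13 and 12 lay above 0, with 1 and 3 that rose and 0 that fell; their sum was 79.7 to 169 CPM with PBS, 108 to 201 CPM with anti-IL-36R and 150 to 211 CPM with anti-IL-12p40. Of 10 epidermis markers 2 rose and 0 fell with anti-IL-36R, and 3 rose and 1 fell with anti-IL-12p40. Neutrophil markers had medians of -0.92 and -0.66 over 14 genes, of which 0 and 2 fell and 0 rose. Their part in the values of the 35 genes was not tested.

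Set against each other in skin, the antibodies gave 0 calls among the 35 genes by edgeR, DESeq2 and limma-voom, 0 with an unadjusted p under 0.05, and 0.0456% of all genes changed; the median was 0.05. The value for Isg15 was -0.25 ± 0.29 (95% interval -0.85 to 0.35) and that for Mx2 0.35 ± 0.20 (-0.07 to 0.77). Against water, 0 of the 35 passed with anti-IL-36R under IMQ, beside 13.1% of all genes, and 0 with anti-IL-12p40 under IMQ, beside 4.80%. DESeq2 and limma-voom also gave 0 in both, and the medians were 0.11 and 0.08. An unadjusted p under 0.05 was reached by 4 and 3 of the 35, beside 4600 and 3550 of all 15345 tested genes. Without water replicate 2 both counts were 0. Without water replicate 3 they were 3 and 1, all higher: Oas1a, Oas2 and Ifih1 with anti-IL-36R and Oas1a with anti-IL-12p40.

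**Figure D4:**
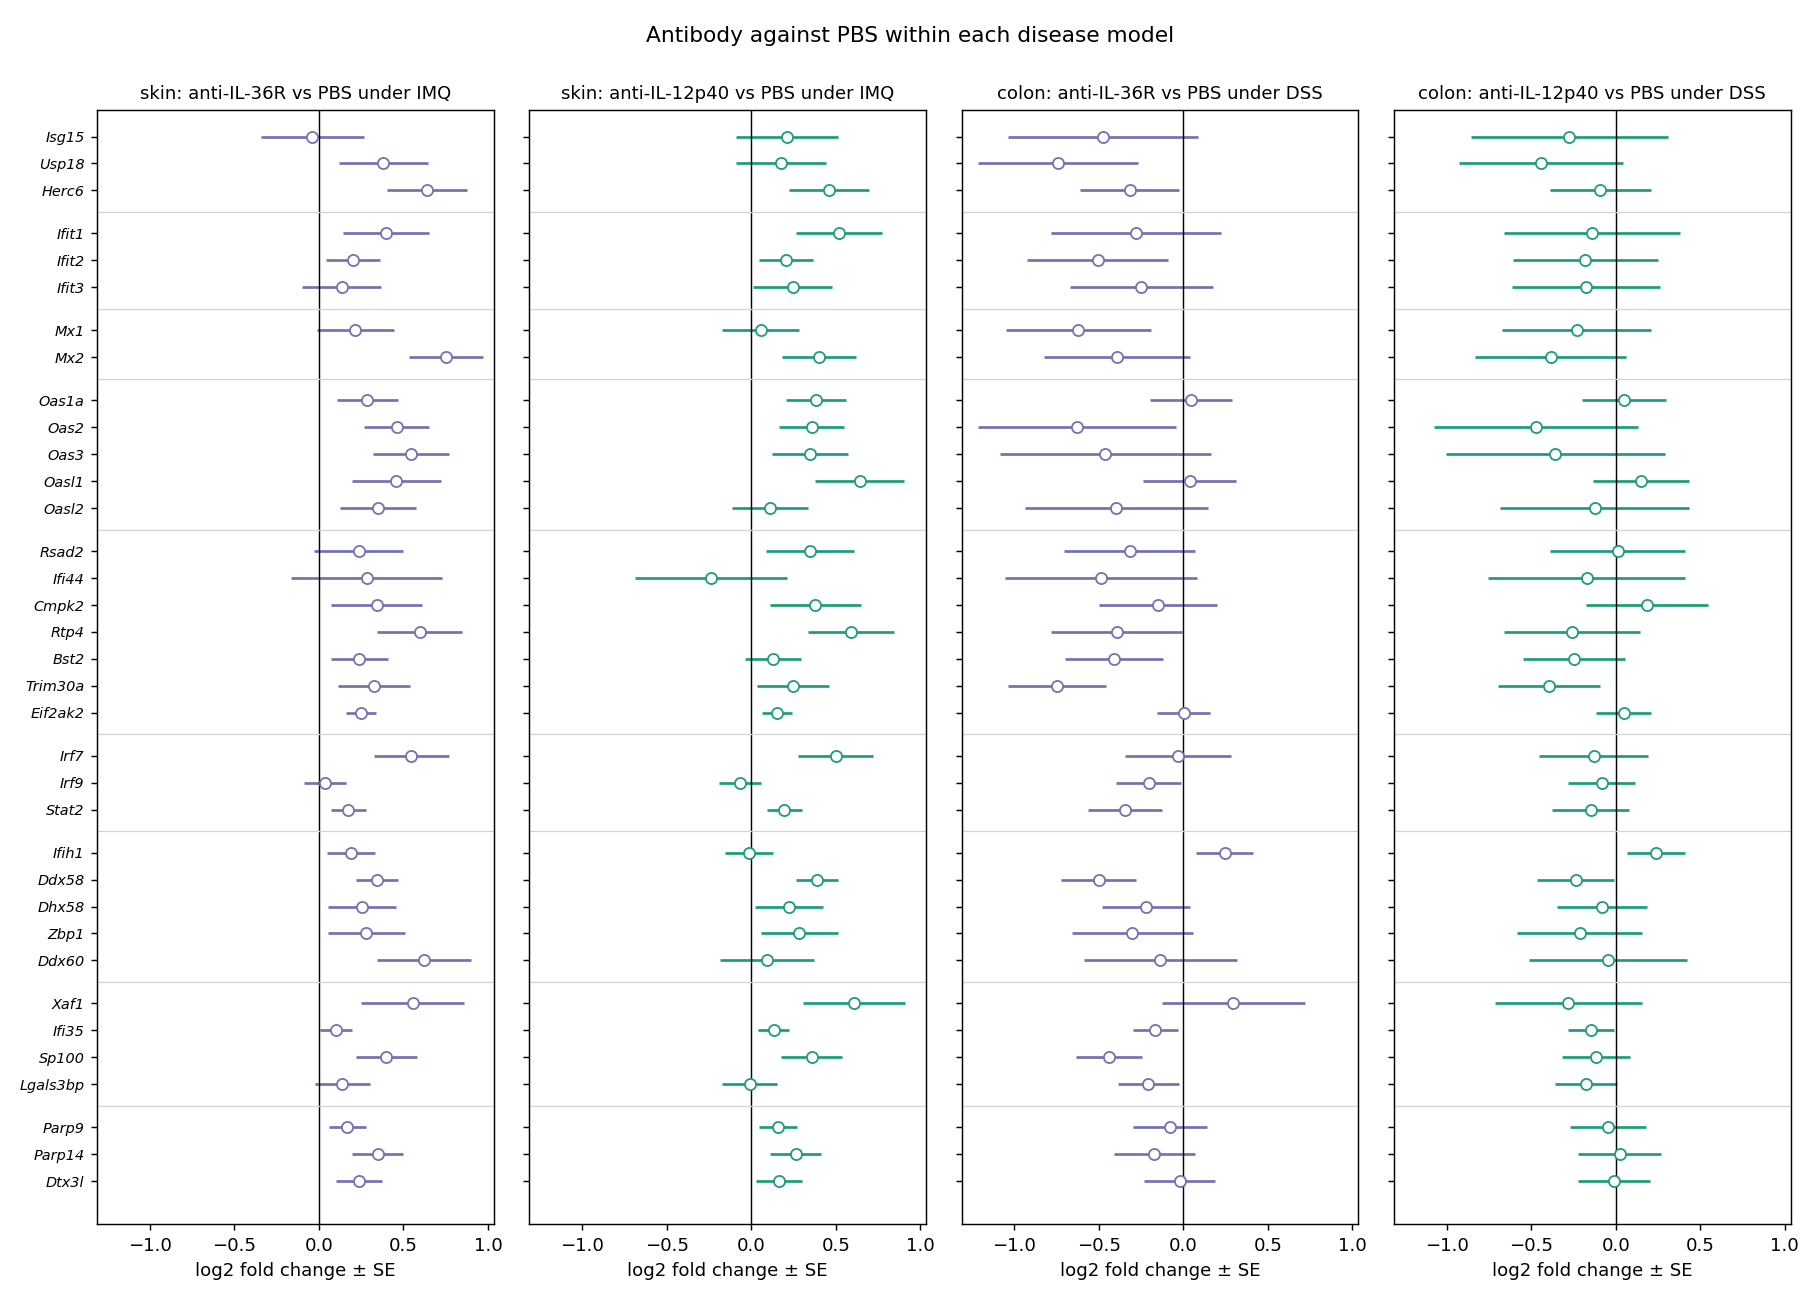
Log2 fold change ± SE on the horizontal axis for the 35 genes in the 4 comparisons of an antibody with PBS; open points did not pass the test, and no point is filled. In skin 34 and 31 of 35 values lie right of 0, and in colon 30 and 28 of 35 lie left of it.

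In colon under DSS, none of the 35 genes passed between anti-IL-36R and PBS, beside 6.60% of all tested genes. The count was 0 by edgeR, DESeq2 and limma-voom. An unadjusted p under 0.05 was reached by 3656 of all 15731 tested genes and by 3 of the 35: Trim30a (-0.75 ± 0.29, adjusted p = 0.123), Ddx58 (-0.50 ± 0.22, adjusted p = 0.17) and Sp100 (-0.44 ± 0.20, adjusted p = 0.175). The log2 fold change was under 0 for 30 genes, with a median of -0.30 beside 0.00 over all. Trim30a was at 13.9 to 84.6 CPM (median 64.8) with PBS and 25.4 to 58.9 CPM (median 27.1) with anti-IL-36R, and 5 of the 8 antibody libraries lay between 25.4 and 28.1 CPM. Without DSS PBS replicate 2, the library at the water level, these 3 genes fell and the median was -0.50. Without DSS anti-IL-36R replicate 2, the highest of its group, 0 passed and the median was -0.48.

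Isg15 was at 6.69 to 61.7 CPM (median 13.3) in colon with anti-IL-36R, against 3.04 to 48.3 CPM (median 22.5) with PBS (-0.47 ± 0.56, adjusted p = 0.642). Usp18 was at 2.44 to 16.1 CPM (median 4.02) against 2.15 to 16.7 CPM (median 8.48) (-0.74 ± 0.47, adjusted p = 0.35). For Oas2 the levels were 6.57 to 75.3 CPM (median 13.2) against 2.27 to 47.2 CPM (median 38.8) (-0.63 ± 0.58, adjusted p = 0.538). In each the antibody median was lower, while replicate 2 of the antibody group came near the top of the PBS range for Usp18 and passed it for the other two. Bst2 stood at 14.03 to 48.3 CPM (median 21.3) against 14.1 to 60.9 CPM (median 34.2) (-0.41 ± 0.29, adjusted p = 0.41), and Mx1 at 4.25 to 12.96 CPM (median 6.57) against 1.91 to 22.1 CPM (median 10.9) (-0.62 ± 0.43, adjusted p = 0.395). Ifit3 was at 9.34 to 28.02 CPM (median 14.2) (-0.25 ± 0.42, adjusted p = 0.76), Rsad2 at 8.08 to 25.05 CPM (median 13.4) (-0.32 ± 0.39, adjusted p = 0.652) and Irf7 at 50.7 to 147 CPM (median 76.5) (-0.03 ± 0.31, adjusted p = 0.963). The 95% interval for Isg15 ran from -1.63 to 0.68.

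Between anti-IL-12p40 and PBS in colon 0 of the 35 passed, beside 1.15% of all genes; DESeq2, limma-voom and an unadjusted p under 0.05 also gave 0. The count was also 0 in all 18 alternatives, the fit without DSS PBS replicate 2 among them. The median with all libraries was -0.15 beside 0.00 over all genes, and 28 values were under 0. The median without that replicate is not given here. Oas2 was at 6.94 to 43.4 CPM (median 25.2) with the antibody (-0.47 ± 0.60, adjusted p = 0.798), Usp18 at 4.10 to 11.8 CPM (median 4.72) (-0.44 ± 0.49, adjusted p = 0.757) and Isg15 at 8.96 to 42.1 CPM (median 14.002) (-0.27 ± 0.58, adjusted p = 0.89). All 3 lay within the range of the PBS libraries. Ifit3 was at 6.94 to 24.5 CPM (median 16.6) (-0.17 ± 0.44, adjusted p = 0.912), Mx1 at 5.79 to 13.7 CPM (median 9.14) (-0.23 ± 0.44, adjusted p = 0.877) and Bst2 at 21.1 to 38.4 CPM (median 32.2) (-0.25 ± 0.30, adjusted p = 0.787). Rsad2 was at 11.1 to 28.6 CPM (median 18.1) (0.01 ± 0.40, adjusted p = 0.993) and Irf7 at 44.8 to 105 CPM (median 84.7) (-0.13 ± 0.32, adjusted p = 0.909). Between the antibodies 0 of the 35 and 0% of all genes passed by edgeR, as by DESeq2 and limma-voom; 0 of the 35 and 552 of all genes had an unadjusted p under 0.05. The median of the 35 was -0.14, and -0.34 without DSS anti-IL-36R replicate 2, where 0 passed.

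The antibody effects were compared between the tissues by interaction. For anti-IL-36R 0 of the 35 differed by edgeR, beside 5.14% of all genes, with 2 calls each by DESeq2 and limma-voom. An unadjusted p under 0.05 was reached by 5 of the 35, beside 3327 of all 16818 tested genes. The value (skin minus colon) was above 0 for 34 of the 35, with a median of 0.56 beside -0.01 over all genes, led in adjusted p by Ddx58 (0.82 ± 0.27, adjusted p = 0.0609). Without DSS PBS replicate 2, 6 genes passed: Mx2, Stat2, Ddx58, Herc6, Trim30a and Sp100, all with the higher value in skin. Without DSS anti-IL-36R replicate 2, 1 passed and the median was 0.78. For anti-IL-12p40 0 differed by edgeR, DESeq2 and limma-voom, beside 1.87% of all genes by edgeR. Of the 35, 1 gene, Ddx58, had an unadjusted p under 0.05, beside 2407 of all 16818 tested genes. Over the 30 alternatives, left-out libraries included, Ddx58 alone was called in any. The median of the 35 was 0.35.

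The genes that act before these were read from lists of ligands, receptors and sensors. Of 20 genes for type I and type III interferons 8 had no count in any of the 49 libraries, Ifnb1 among them, and none passed the filter. A count of 0 allows up to 3 counts, which is 0.152 to 0.204 CPM at these depths (counting error only); the highest value was 0.339 CPM, of Ifnz. Of 11 genes for receptors and JAK-STAT proteins 7 rose and 0 fell under DSS, where 17.6% of all tested genes rose. Ifnar2 rose by 2.03 ± 0.25, adjusted p = 2.65e-06 and Ifnar1 by 0.68 ± 0.11, adjusted p = 6.44e-05 (edgeR). Under IMQ 6 rose and 2 fell, where 33.0% of all tested genes changed. Ifnar2 rose by 0.43 ± 0.16, adjusted p = 0.0471, and Ifnar1, at 0.06 ± 0.11, adjusted p = 0.662, did not pass. With anti-IL-36R in colon 3 of the 11 fell, where 6.60% of all tested genes changed. Of these 3, 2 were Ifnar2 (-1.02 ± 0.21, adjusted p = 0.0038) and Ifnar1 (-0.43 ± 0.10, adjusted p = 0.00785).

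Of 20 sensing genes upstream of interferon 10 rose and 0 fell under DSS, beside 17.6% of all genes that rose. Under IMQ 4 rose and 0 fell, beside 33.0% of all genes that changed. Tlr7, the receptor that imiquimod engages, rose under DSS (1.93 ± 0.29, adjusted p = 2.04e-05) and did not pass under IMQ (0.68 ± 0.30, adjusted p = 0.0847), at 4.95 to 17.8 CPM (median 12.4) in IMQ PBS libraries against 6.02, 6.70 and 10.1 CPM in skin water libraries. Myd88, its adaptor, rose under IMQ (0.76 ± 0.12, adjusted p = 0.000333). Irf5 rose under DSS (1.82 ± 0.25, adjusted p = 8.07e-06) and not under IMQ (0.10 ± 0.13, adjusted p = 0.548), and Irf3 passed in neither (-0.18 ± 0.08, adjusted p = 0.102 and 0.17 ± 0.07, adjusted p = 0.0534). Of 8 feedback regulators 3 rose under DSS and 4 under IMQ, Socs3 with 4.42 ± 0.42, adjusted p = 4.78e-07 and 1.92 ± 0.37, adjusted p = 0.000905. Of 54 other interferon-stimulated genes tested in colon 36 rose and 0 fell under DSS (median 0.89), with Slfn1 at 5.90 ± 0.63, adjusted p = 9.16e-07 and Cxcl10 at 4.94 ± 0.98, adjusted p = 0.000463; of 53 in skin 8 rose and 1 fell under IMQ (median -0.04; 33.0% of all genes changed), with Slfn4 at 2.76 ± 0.58, adjusted p = 0.00152 and Cxcl10 at -0.89 ± 0.43, adjusted p = 0.11, which did not pass. With anti-IL-36R in colon 8 of the 54 fell and 0 rose, where 6.60% of all genes changed. Among the 8 were Cxcl11 (-3.31 ± 0.84, adjusted p = 0.0174) and Slfn1 (-2.52 ± 0.42, adjusted p = 0.000646). With anti-IL-12p40, where 1.15% of all genes changed, 1 fell, Slfn1 (-1.86 ± 0.43, adjusted p = 0.0347).

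Of 29 interferon-gamma-induced genes 28 rose and 0 fell under DSS, with a median log2 fold change of 2.38, led by Nos2 (6.99 ± 0.96, adjusted p = 7.6e-06) and Cxcl9 (5.94 ± 1.28, adjusted p = 0.00107); Ifng itself rose (adjusted p = 0.00684) from at most 0.0707 CPM in water to 0 to 5.78 CPM (median 2.03), with 0 in DSS PBS replicates 2 and 4. Under IMQ 1 of 28 rose and 4 fell (median -0.28), the 4 being the antigen presentation genes Cd74, H2-Aa, H2-Ab1 and H2-Eb1. Of all tested genes 17.6% rose under DSS and 33.0% changed under IMQ. With anti-IL-36R in colon, where 6.60% of all genes changed, 2 of 29 fell and 0 rose. The 2 were Nos2 (-2.18 ± 0.62, adjusted p = 0.0316) and Serpina3g (-1.86 ± 0.36, adjusted p = 0.00254).

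Cell markers moved in the same comparisons. Of all tested genes 17.6% rose under DSS and 33.0% changed under IMQ. With anti-IL-36R in colon 6.60% changed, and with anti-IL-12p40 in colon 1.15%. Under DSS 15 of 16 neutrophil, 15 of 16 monocyte and macrophage, 12 of 13 T and NK cell and 11 of 11 B cell markers rose and 0 fell, and summed neutrophil markers went from 9.75 to 86.8 CPM in water to 177 to 1699 CPM. Of 9 plasmacytoid dendritic cell markers 6 rose and 1, Klk1, fell (-1.63 ± 0.46, adjusted p = 0.00887). Over the 11 genes of that list in the counts, the mean log2 CPM went from 2.24 in water to 3.04 under DSS with PBS. Their sum went the other way, from 856 to 1935 CPM (median 974) in water to 391 to 1093 CPM (median 633) under DSS with PBS. In skin that mean went from 2.21 in water to 1.39 under IMQ with PBS, and the median sum from 650 to 882 CPM. Under IMQ 11 of 14 neutrophil and 10 of 16 monocyte and macrophage markers rose and 0 fell. Of 13 T and NK cell markers 2 rose and 6 fell, and of 9 plasmacytoid dendritic cell markers 1, Ly6d, rose (0.69 ± 0.24, adjusted p = 0.033) and 4 fell, among them Pacsin1 (-2.30 ± 0.54, adjusted p = 0.00331) and Siglech (-1.61 ± 0.38, adjusted p = 0.00358). With anti-IL-36R in colon 15 of 16 neutrophil markers fell (summed 80.4 to 233 CPM) and 5 of 16 of monocytes and macrophages, and with anti-IL-12p40 10 of 16 neutrophil markers fell (64.3 to 324 CPM). Their part in the changes of the 35 genes was not tested.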

How the data were processed

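Bulk RNA was sequenced from skin and colon. The authors deposited a table of expected counts per gene for each tissue; RSEM and the build mm10 are named in the submitters' processing notes, and versions, annotation and use of strand are not given in the sources used here. Of the 24475 genes 24375 were matched to a symbol. Expected counts were rounded, filtered (filterByExpr) to 15345 genes in skin, 15731 in colon and 16818 in the joint fit, and scaled by TMM within each table. All groups of a tissue entered 1 edgeR quasi-likelihood fit (edgeR 4.0.16, R 4.3.3), with Benjamini-Hochberg adjustment over all tested genes and a threshold of 0.05; effects were compared between tissues as interactions in a fit of both. DESeq2 1.42.0, limma-voom (limma 3.58.1), other filters and scaling, and left-out libraries were alternatives. The scripts were tested on simulated data. No library was left out and 0 columns were unused.

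The members and lists were chosen with earlier results of these data known. Genes given by library were Isg15, Ifit3, Irf7, Oas2, Rsad2, Usp18, Mx1 and Bst2, 1 or more for most roles. Beside them stand the up to 4 members that rose or fell most among those past the threshold, up to 4 genes of each other list, and Ifnb1, Ifnar1, Ifnar2, Tlr7, Irf3, Irf5, Cxcl10, Ifng and Siglech; the other members named with values complete the account by role. 1 gene that the rule names is not reported here. Expected counts that are not whole can come from reads shared between genes; 17 of the 35 members had one in some library and 10 in all 49 (Ifit3, Mx1, Mx2, Oas1a, Oas3, Irf9, Xaf1, Trim30a, Sp100 and Eif2ak2), and their levels are less certain.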

Additional observations from a re-analysis of the deposited data

Results flagged for a closer look

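In 63 groups of 4 to 10 samples tested for a value far from the rest, 3 held one; chance alone gives about 1 in 20 groups. The mean log2 CPM of the 35 genes in DSS anti-IL-36R replicate 2 was 5.956, against 5.067 in the next library of that group. Oas2 in the same library stood at 6.236 log2 CPM, with the next at 4.29. Isg15 in skin IMQ PBS replicate 6 was the lowest of its group at 0.6585 log2 CPM, with the next at 1.396.

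The change under IMQ in skin and that under DSS in colon differed by the interaction test for 19 genes, given as skin minus colon on the log2 scale: Ifi44 (-3.353), Zbp1 (-3.213), Oas2 (-3.072), Oas3 (-2.571), Ifit2 (-2.503), Usp18 (-2.435), Isg15 (-2.274), Oasl2 (-2.202), Ifit3 (-2.03), Rtp4 (-1.972), Herc6 (-1.835), Sp100 (-1.654), Trim30a (-1.577), Stat2 (-1.495), Bst2 (-1.326), Ddx58 (-1.232), Parp14 (-1.194), Irf9 (-1.02) and Dtx3l (-0.873). All 19 changes were lower in skin, as were those of 13.4% of all tested genes. Of the 19, 9 were called in all 24 alternatives. Tissue and agent differ together and cannot be told apart.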

How the results depend on the processing

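Most counts of called genes stayed within 1.5 times the reported one under DESeq2 size factors, no filter on low counts, DESeq2, limma-voom with sample weights and a fit of the 2 groups alone. The exceptions follow, and the cause was not tested. For anti-IL-36R against PBS in skin the count went from 0 to 1 (DESeq2), 7 (limma-voom) and 1 (2 groups alone), and for anti-IL-12p40 from 0 to 1, 1 and 2. For anti-IL-36R under DSS against water it went from 11 to 18 (DESeq2) and 25 (limma-voom), for anti-IL-12p40 from 19 to 29 (limma-voom), and for the tissue difference of anti-IL-36R from 0 to 2 by both. With each library left out in turn, the counts ran from 0 to 4 for IMQ against water (4 without water replicate 2), 0 to 2 and 0 to 1 for anti-IL-36R and anti-IL-12p40 against PBS in skin, and 0 to 3 and 0 to 1 for the antibodies under IMQ against water. They ran from 0 to 3 for anti-IL-36R against PBS in colon, 4 to 12 and 11 to 24 for the antibodies under DSS against water, 9 to 26 for the tissue difference of disease, and 0 to 6 and 0 to 1 for those of the antibodies. Of the 24 genes that rose under DSS 17 did so in all 16 alternatives.

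Some single genes under IMQ, none past the test, changed sign. Isg15 (-0.13) ran from -0.426 to 0.363 with libraries left out and was 0.0652 with PBS replicates 1 to 3 alone. Oas2 (-0.14) was 0.107 by limma-voom and ran from -0.352 to 0.421. Irf7 (0.08) ran from -0.0819 to 0.461, Rsad2 (-0.12) from -0.267 to 0.0489 and Bst2 (0.02) from -0.131 to 0.238. The 3 skin water libraries, and Mx2 at a median of 18.4 counts in skin, limit the precision. No paired analysis was possible because the labels give no replicate numbers that groups share.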
